A study of Homo sapiens with 6 samples.

Results

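Transcripts of 44 mitosis genes were followed 48 h after X-rays in HaCaT, a line of human skin keratinocytes that became immortal in culture. Members were the transcript clusters of the gene-level array table whose single platform symbol is one of the 44, the brightest cluster standing for a symbol. This gave 43 of the 44 genes, each with 1 cluster, among 22411 genes with a single symbol. The cluster of BUB1B, the checkpoint kinase relative BubR1, carries several symbols and was not used. The study held 3 mock-irradiated cultures (0 Gy) and 3 cultures given 20 Gy at 1.15 Gy per min, grown in DMEM with fetal bovine serum and antibiotics, with 1 array of total RNA per culture. The titles number the cultures 1 to 3 in both groups and call them biological replicates, without saying whether they were grown on separate days. P-values of the paired test rest on the spread of the differences within same-numbered pairs of these cultures. Those of tests without the pairing rest on the spread between the cultures. In both, the method (limma) draws each gene's spread towards that of genes with similar signal. All cells are of 1 line.

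Mitosis is driven by cyclin B and the kinase CDK1, helped by the Polo and Aurora kinases. Kinesins and microtubule-binding proteins build the spindle, kinetochores tie chromosomes to it, and the spindle checkpoint holds back the anaphase-promoting complex until every chromosome is attached. Most of these genes are transcribed from late S phase to mitosis, and are kept silent in resting cells by the DREAM complex, which binds a promoter element called the cell cycle genes homology region (CHR), and activated by B-MYB and FOXM1. Ionising radiation is known to delay entry into mitosis in many cells. The question the design poses is which transcripts differ between irradiated and mock-irradiated keratinocytes.

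All 43 genes lay above background, a log2 signal of 6.01, the mean of the brightest of 23 background control sets. Values below are log2 array signals, and differences are irradiated minus mock on that scale. Signals of different genes are not compared, since probes differ. On the arrays as a whole, same-numbered cultures deviated together from their group means with correlations of 0.852, 0.906 and 0.923 over 9324 genes above background. Those between unlike numbers ran from -0.713 to 0.0321. Deviations within a group of 3 sum to 0, so high same-numbered values push the unlike ones below 0. Both arrays of replicate 3 stood apart from the other 4 on principal component 1, which held 61.5% of the variance. Each comparison was made within pairs of the same number, as the definition of this gene set asks. Of the fixed keratinocyte markers 9 of 13 were measured and all 9 lay above background, while 0 of 5 fibroblast markers, 0 of 5 endothelial markers and 1 of 5 melanocyte markers (MITF) did.

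Of the mitosis genes 1 rose and 1 fell after irradiation in the paired test, and for the other 41 no difference passed it. MAD2L1, which encodes the checkpoint protein MAD2, rose 1.35-fold, and MKI67, which encodes the Ki-67 proliferation antigen, fell by 24.1%. In the paired limma test over 9324 genes above background these 2 of 43 passed an adjusted p of 0.05. Over all genes 467 passed (5.01%), 346 of them lower (3.71%) and 121 higher (1.3%), so the 1 lower and 1 higher call among 43 genes lie near the background. Of the 43 genes 41 had a mean difference below 0, against 71.8% of all genes tested, and the median was -0.17, against -0.089 over all genes tested. Levels were measured in bulk RNA, so fewer cells in mitosis and less RNA per cell cannot be told apart.

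MAD2L1 and MKI67 were lost as calls in wider or unpaired tests. Over all 67528 transcript clusters the paired limma test called 0 (10237 at unadjusted p under 0.05, 12 of them among the 43 genes), with an adjusted p of 0.210 for MKI67 and 0.220 for MAD2L1. Without the replicate block the limma test over genes above background called 0 (312 at unadjusted p under 0.05, 0 of them among the 43). In that fit 3.35% of all genes had an unadjusted p under 0.05, and over all clusters with no block 0 were called and 7.14% had one, against 15.2% in the paired fit. After quantile normalization, when 2.18% of all genes were called (0.901% lower and 1.28% higher), MAD2L1 passed at 0.53 (adjusted p = 0.0409) and MKI67 did not pass, at -0.33 (adjusted p = 0.0875). MAD2L1 was also the 1 mitosis gene called after cyclic loess (1.92% of all genes) and with arrays centred on genes above background (2.89%).

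MAD2L1 had signals of 8.38, 9.25 and 8.58 on the mock arrays and 8.89, 9.52 and 9.10 on the irradiated arrays of replicates 1, 2 and 3. Each irradiated array was above the mock array of its number, while the groups overlapped, since mock replicate 2 lay above irradiated replicates 1 and 3. Its mean went from 8.74 ± 0.46 to 9.17 ± 0.32 (SD, n = 3 per group). The paired difference was 0.43 ± 0.082 (SE, limma adjusted p = 0.041), and the pairs gave 0.51, 0.27 and 0.52. MAD2 binds CDC20 at unattached kinetochores and so keeps the anaphase-promoting complex off. No other spindle checkpoint gene among the 43 passed in either direction. With any 1 of the 3 pairs left out the difference was 0.40, 0.52 and 0.39 without replicates 1, 2 and 3, and the call was lost each time (adjusted p = 0.0845, 0.0748 and 0.111 in limma).

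MKI67, whose product coats mitotic chromosomes, had signals of 15.26, 16.03 and 14.47 on the mock arrays and 14.82, 15.58 and 14.17 on the irradiated arrays. Each irradiated array was below its mock partner, and the spread between cultures was wider than the difference. Its mean went from 15.25 ± 0.78 to 14.86 ± 0.71, a difference of -0.40 ± 0.079 (adjusted p = 0.0448). With pairs 1, 2 and 3 left out, which left 2.69%, 0.708% and 1.5% of all genes called, its difference was -0.38, -0.37 and -0.44, and the call was lost each time (adjusted p = 0.124, 0.159 and 0.0766 in limma). TOP2A, the topoisomerase that untangles sister chromatids, had signals of 15.97, 16.38 and 15.50 on the mock arrays and 15.85, 16.11 and 15.61 on the irradiated arrays. It was lower in pairs 1 and 2 and higher in pair 3, with a difference of -0.10 ± 0.10 (adjusted p = 0.545), which turned to 0.013 after quantile normalization.

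**Figure D1:**
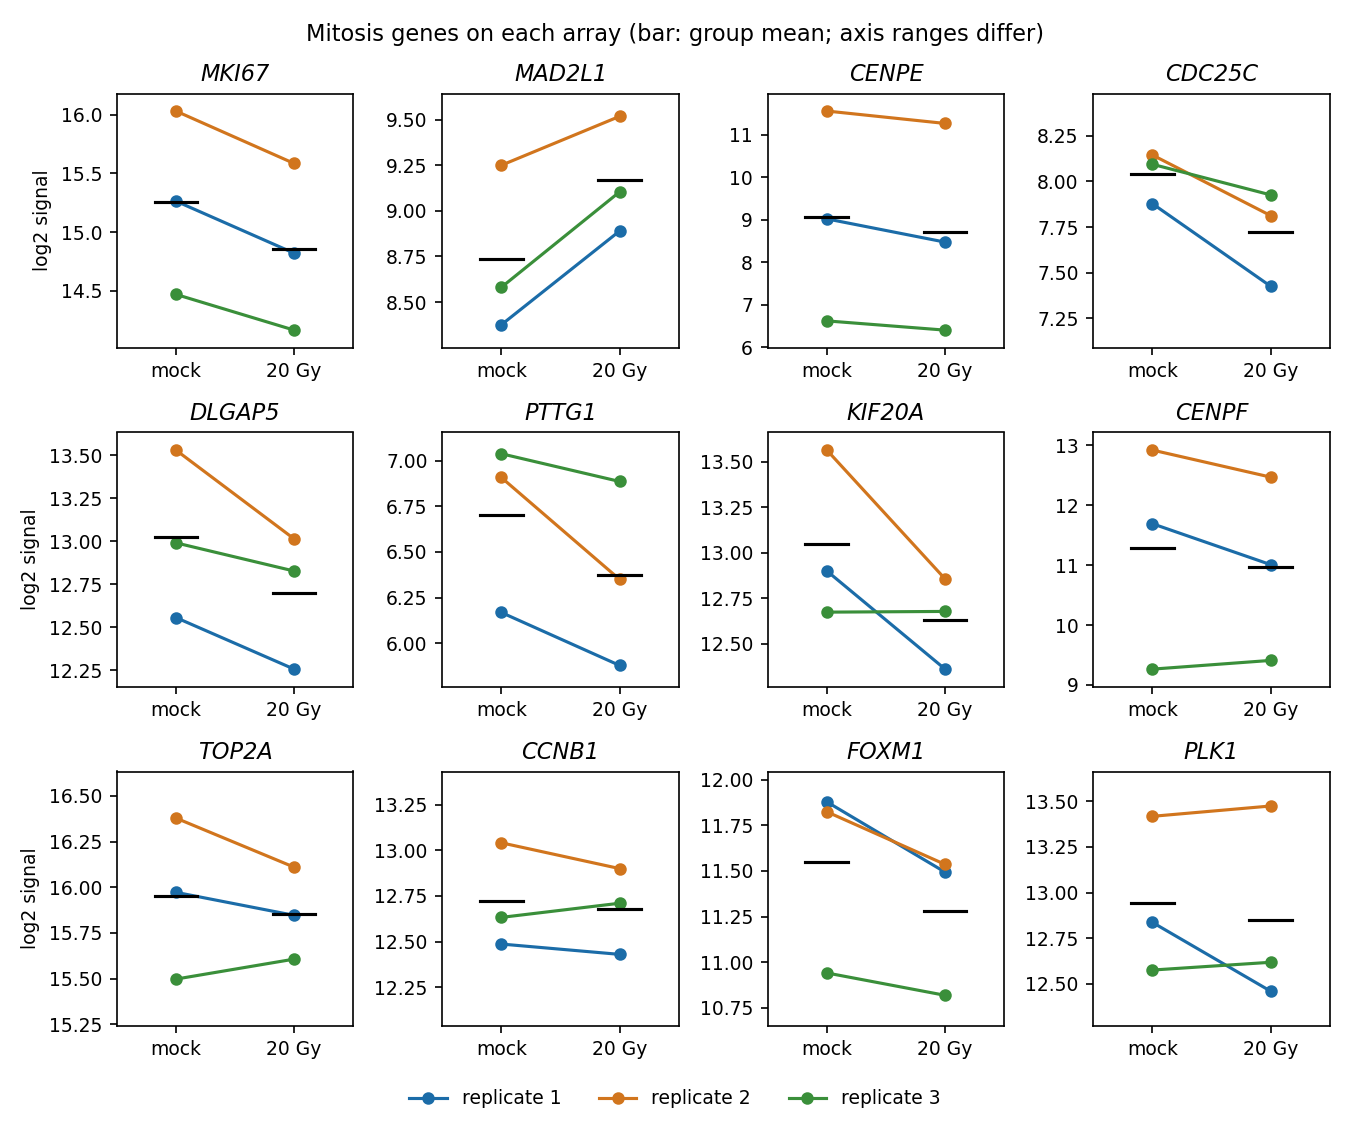
Log2 signal of 12 mitosis genes on the mock and the 20 Gy arrays, with a line for each replicate number, a black bar for the group mean and a scale of its own in each panel. All 3 lines of MAD2L1 go up and all 3 of MKI67 go down, while the lines of TOP2A and CCNB1 go down in replicates 1 and 2 and up in replicate 3.

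Mitosis genes share promoter elements, so the start regions of the called genes are shown with those of genes lower in every pair. Windows of 250 bases before to 50 bases after the RefSeq start (GRCh38.p14) were searched on both strands for the CHR element as TTTGAA, as its variant TTCGAA and as its variant TTTAAA. The box bound by NF-Y was searched as CCAAT and an E2F-like element as TTNNCGC. Capitals mark the forms of CHR and the NF-Y box, on either strand. All 5 windows lie on the minus strand and are written 5′ to 3′ in the direction of transcription.
MKI67, chr10:128126374-128126673: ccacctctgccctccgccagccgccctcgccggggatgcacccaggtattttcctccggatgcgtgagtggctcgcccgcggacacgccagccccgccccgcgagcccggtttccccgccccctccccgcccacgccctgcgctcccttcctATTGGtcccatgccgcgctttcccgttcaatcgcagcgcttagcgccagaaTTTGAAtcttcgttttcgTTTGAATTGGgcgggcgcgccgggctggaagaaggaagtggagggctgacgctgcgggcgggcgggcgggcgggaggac
MAD2L1, chr4:120066799-120067098: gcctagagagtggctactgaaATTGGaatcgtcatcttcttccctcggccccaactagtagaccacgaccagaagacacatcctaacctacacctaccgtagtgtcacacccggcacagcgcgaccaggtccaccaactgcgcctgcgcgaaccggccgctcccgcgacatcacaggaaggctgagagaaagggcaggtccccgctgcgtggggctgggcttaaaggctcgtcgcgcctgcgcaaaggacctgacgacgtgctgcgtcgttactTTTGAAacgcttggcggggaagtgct
CENPE, chr4:103198294-103198593: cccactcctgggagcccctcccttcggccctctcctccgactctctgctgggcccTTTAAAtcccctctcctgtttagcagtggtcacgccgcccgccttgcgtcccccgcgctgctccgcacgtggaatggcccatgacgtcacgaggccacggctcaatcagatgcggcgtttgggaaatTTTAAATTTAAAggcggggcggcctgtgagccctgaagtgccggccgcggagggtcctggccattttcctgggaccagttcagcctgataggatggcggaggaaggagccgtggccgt
CDC25C, chr5:138331828-138332127: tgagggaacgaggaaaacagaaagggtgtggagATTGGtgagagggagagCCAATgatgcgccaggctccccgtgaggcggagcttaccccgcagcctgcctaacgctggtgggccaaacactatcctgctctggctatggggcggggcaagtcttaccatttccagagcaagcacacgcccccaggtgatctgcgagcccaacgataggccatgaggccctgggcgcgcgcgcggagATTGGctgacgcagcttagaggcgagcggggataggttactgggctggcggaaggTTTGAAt
DLGAP5, chr14:55191536-55191835: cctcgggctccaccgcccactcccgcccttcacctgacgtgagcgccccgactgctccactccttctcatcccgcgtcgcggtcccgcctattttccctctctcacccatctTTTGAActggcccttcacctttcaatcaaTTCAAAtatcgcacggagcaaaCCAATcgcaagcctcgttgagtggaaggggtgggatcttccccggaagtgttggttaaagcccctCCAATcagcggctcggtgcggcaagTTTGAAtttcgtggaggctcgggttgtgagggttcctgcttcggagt

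The gene that rose and the gene that fell both held TTTGAA close to the start, at positions -47 and -29 in MKI67 and at position 25 in MAD2L1 (position 1 is the first transcribed base). DLGAP5 held TTTGAA 3 times, from positions -138, -109 and 4. CENPE held TTTAAA 3 times, from positions -195, -68 and -62, and neither TTTGAA nor CCAAT. CDC25C has 4 RefSeq start windows, and the one shown was chosen because it holds TTTGAA, from position 44, beside CCAAT on either strand. In MKI67 the second TTTGAA shares a base with a reverse CCAAT.

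Windows were found for 36 of the 43 genes, 46 in all. TTTGAA stood in 29 of the 46 (63.0%), against 15.2% of all 35116 windows in the RefSeq table, and CCAAT in 36 of 46 (78.3%), against 34.6%. TTCGAA stood in 6.5% against 1.4%, TTTAAA in 34.8% against 12.2%, and TTNNCGC in 43.5% against 25.3%. Against windows of genes above background, 11.3% of which held TTTGAA and 36.2% CCAAT, both elements were still more frequent in the mitosis genes, whereas TTNNCGC was near its 37.6%. TTTGAA together with CCAAT stood in 54.3% of the 46 windows and in 5.9% of all. These are counts of letters, and binding was not measured.

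The range between cultures was larger than the mean difference between the groups for all 43 genes. A range and a mean are unlike measures, and this count was not made over all genes. The range over the 3 culture numbers, each taken as the mean of its mock and irradiated array, had a median of 0.75 over the 43 genes, against 0.42 over all genes above background. The median size of the irradiated minus mock difference was 0.19, against 0.13. Culture 2 was highest for 39 of the 43 (90.7%), against 37.9% of all genes tested, and the lowest was culture 1 for 23 and culture 3 for 20. The groups of arrays overlapped for all 43 genes, and did not for 9.23% of all genes.

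CENPE, a large kinesin-like motor that carries chromosomes along the spindle from the kinetochore, spread most, with signals of 9.02, 11.55 and 6.62 on the mock arrays and 8.47, 11.26 and 6.40 on the irradiated arrays. Both arrays of replicate 3 lay just above the background limit, and both of replicate 2 lay highest. KIF20B, a kinesin of late mitosis, had 11.30, 13.00 and 8.61 on the mock arrays and 10.79, 12.85 and 8.89 on the irradiated arrays. CENPF, a large kinetochore and nuclear matrix protein, had 11.69, 12.92 and 9.26 on the mock arrays and 11.01, 12.47 and 9.41 on the irradiated arrays. ASPM, a spindle pole protein known for its role in brain size, had 11.70, 12.87 and 9.19 on the mock arrays and 11.00, 12.48 and 9.49 on the irradiated arrays. In these 4 genes and in KIF14, a kinesin of cytokinesis, replicate 2 was highest and replicate 3 lowest, with ranges between cultures from 2.41 (KIF14) to 4.90 (CENPE).

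Other members of the same structures did not spread as far. CENPA, the histone variant that marks centromeres, had a range between cultures of 0.53, NDC80, a microtubule-binding kinetochore subunit, of 0.42, and KIF4A, a chromosome-bound kinesin, of 0.26. BUB3 had the narrowest range, 0.20. Genes that span more of the genome, introns included, tended to lie lower in culture 3 relative to culture 2, with a Spearman correlation of -0.42 across the 43 genes and -0.21 across 9322 genes. These points come from the same arrays and genes are not independent, so this is a description. Its part in the spread was not tested.

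**Figure D2:**
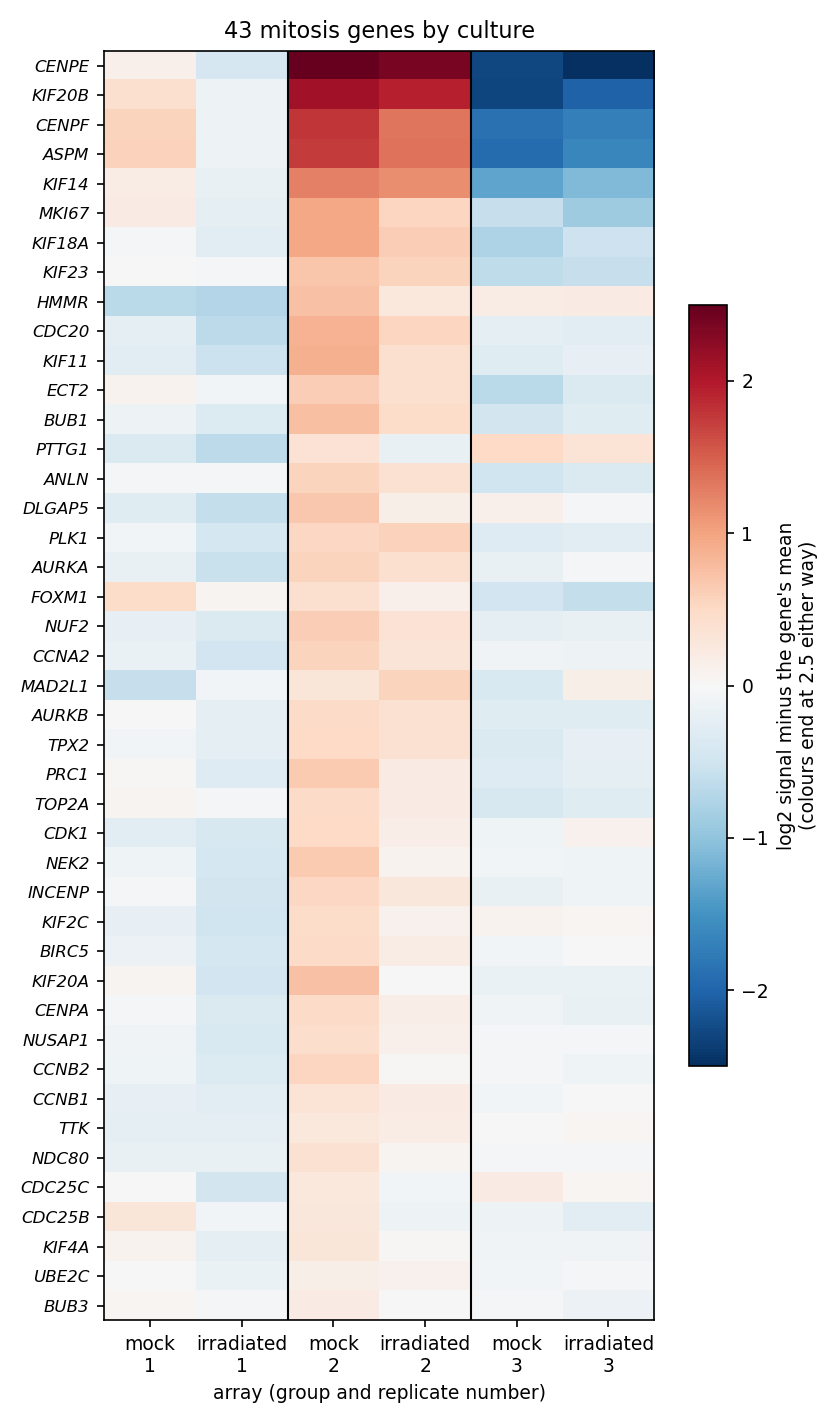
Log2 signal of the 43 mitosis genes on each array minus the gene's own mean, in colour, with genes ordered by their range between cultures and black lines between replicate numbers. Replicate 2 is red in both groups for most genes, and CENPE, KIF20B, CENPF and ASPM show ranges of 4.90, 4.18, 3.36 and 3.33.

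Pair by pair, the sign of the difference split by culture. In pair 1 40 of 43 genes were lower after irradiation and in pair 2 41 of 43, whereas in pair 3 17 were lower and 26 higher. The pair medians were -0.29, -0.30 and 0.043, against -0.12, -0.079 and -0.063 over all genes tested. Lower in all 3 pairs were 17 of 43 genes, near the 41.9% of all genes, and higher in all 3 pairs was only MAD2L1 (9.94% of all genes). In pair 3 37.9% of all genes were higher. Replicate 3, the pair in which mitosis genes were mostly higher, is also the one that stood apart on the first principal component. Without replicate 3 the median of the 43 genes was -0.29, against -0.10 over all genes tested. It was -0.14 without replicate 1 and -0.12 without replicate 2.

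The median over all genes tested was below 0 as well. Among genes above background the arrays' medians ran from 8.30 to 8.37 in mock cultures and from 8.23 to 8.26 in irradiated ones. Over all transcript clusters the medians went the other way. Mock arrays 1, 2 and 3 had 4.53, 4.54 and 4.63, and irradiated arrays 4.64, 4.62 and 4.66. Over all 22411 genes with a single symbol the median difference was 0.014. The drop was thus seen among genes above background only. After quantile normalization the median of all genes tested was -0.015 and that of the 43 genes -0.083, with 34 of 43 lower against 54.2% of all genes, and pair medians of -0.18, -0.23 and 0.095. Over all genes the calls then split into 119 higher and 84 lower. Of the 43, 13 genes were lower at unadjusted p under 0.05 on deposited values (23.6% of all genes were). After quantile normalization 6 of 43 were, near the 12.1% of all genes. At the same unadjusted limit 1 gene, MAD2L1, was higher on deposited values (5.22% of all genes).

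Among the 10 genes of mitotic entry all 10 had mean differences below 0, from -0.32 (CDC25C) to -0.040 (CCNB1), as did 71.8% of all genes tested. In the paired limma test over genes above background 0 of the 10 passed. At unadjusted p under 0.05 in that test 5 were lower, against 23.6% of all genes. CDC25C, a phosphatase that activates CDK1, had signals of 7.88, 8.14 and 8.09 on the mock arrays and 7.43, 7.81 and 7.93 on the irradiated arrays. Each irradiated array was below its partner, with a difference of -0.32 ± 0.081 (adjusted p = 0.0694). CDC25B, the phosphatase thought to start CDK1 activation at centrosomes, had 11.17, 11.14 and 10.72 on the mock arrays and 10.79, 10.72 and 10.60 on the irradiated arrays, a difference of -0.31 ± 0.087 (adjusted p = 0.0853). Irradiated replicate 1 and irradiated replicate 2 both lay below their mock partners by more than replicate 3 did.

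CDK1 itself had signals of 10.60, 11.36 and 10.76 on the mock arrays and 10.45, 11.03 and 10.96 on the irradiated arrays, lower in pairs 1 and 2 and higher in pair 3, with a difference of -0.093 ± 0.11 (adjusted p = 0.603). CCNB1, cyclin B1, had 12.49, 13.04 and 12.63 on the mock arrays and 12.43, 12.90 and 12.71 on the irradiated arrays, with -0.057, -0.14 and 0.078 in the pairs and -0.040 ± 0.081 (adjusted p = 0.769) overall. After quantile normalization CCNB1 lay at 0.041, on the other side of 0. The paralog CCNB2 lay lower in every pair, at -0.24, -0.52 and -0.084, and the S and G2 phase cyclin CCNA2 at -0.32, -0.24 and -0.041, and neither passed (adjusted p = 0.132 and 0.188). The difference between the cyclin B genes was not tested.

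PLK1, the Polo-like kinase of mitotic entry and spindle poles, had 12.84, 13.42 and 12.58 on the mock arrays and 12.46, 13.47 and 12.62 on the irradiated arrays. Only replicate 1 was lower after irradiation, and the difference was -0.093 ± 0.11 (adjusted p = 0.593). AURKA, the spindle pole Aurora kinase, lay at -0.38, -0.14 and 0.15 in the pairs. NEK2, which splits centrosomes, had 8.02, 8.79 and 8.06 on the mock arrays and 7.69, 8.22 and 8.02 on the irradiated arrays, lower in each pair, with a difference of -0.31 ± 0.11 (adjusted p = 0.125). FOXM1, the transcription factor that activates late mitotic genes, had 11.88, 11.82 and 10.94 on the mock arrays and 11.49, 11.54 and 10.82 on the irradiated arrays. It too was lower in each pair, with a difference of -0.27 ± 0.083 (adjusted p = 0.103), and both arrays of replicate 3 lay below the other 4.

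Of the 7 measured genes of the spindle checkpoint and anaphase control, MAD2L1 rose and the other 6 did not pass. PTTG1, securin, which guards separase until anaphase, had 6.17, 6.91 and 7.04 on the mock arrays and 5.88, 6.35 and 6.89 on the irradiated arrays. It was lower in each pair, with a difference of -0.33 ± 0.092 (adjusted p = 0.0805). Irradiated replicate 1 lay below the background limit, so its value there is only a bound, and near-identical copies of PTTG1 may share probe signal. TTK, the checkpoint kinase MPS1, had 11.59, 12.10 and 11.82 on the mock arrays and 11.60, 12.02 and 11.89 on the irradiated arrays, a difference of 0.0028 ± 0.076 (adjusted p = 0.983), and was higher in pairs 1 and 3 and lower in pair 2. CDC20, the activator that MAD2 binds, lay at -0.41, -0.33 and -0.035 in the pairs (adjusted p = 0.137). It was lower in each pair, as were 17 of the 43 genes and 41.9% of all genes. BUB1, a checkpoint kinase, lay at -0.21, -0.30 and 0.17 in the pairs, its partner BUB3 at -0.088, -0.21 and -0.10, and UBE2C, a ubiquitin-conjugating enzyme of the anaphase-promoting complex, at -0.17, -0.043 and 0.013.

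The 5 centromere and kinetochore genes had differences from -0.35 to -0.10, and 71.8% of all genes lay below 0. Of the 5 genes 0 passed, and 2 were lower at unadjusted p under 0.05 in limma, against 23.6% of all genes. CENPE was lower in each pair, at -0.55, -0.29 and -0.22, beside a range of 4.90 between cultures, with a mean of -0.35 ± 0.088 (adjusted p = 0.0667). CENPF lay at -0.68, -0.45 and 0.15 in the pairs, lower in 2 and higher in 1, with a mean of -0.33 ± 0.15 (adjusted p = 0.211). CENPA had signals of 8.89, 9.41 and 8.85 on the mock arrays and 8.57, 9.10 and 8.75 on the irradiated arrays, lower in each pair, with a mean of -0.24 ± 0.079 (adjusted p = 0.112). The microtubule-binding NDC80 and NUF2 had mean differences of -0.10 and -0.13, both close to the -0.089 of all genes.

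In the chromosomal passenger complex, which corrects faulty attachments, AURKB had signals of 8.86, 9.35 and 8.57 on the mock arrays and 8.62, 9.26 and 8.56 on the irradiated arrays. It was lower in each pair, by 0.006 in pair 3, and its difference was -0.11 ± 0.078 (adjusted p = 0.371). BIRC5, survivin, had 8.81, 9.43 and 8.88 on the mock arrays and 8.52, 9.14 and 8.96 on the irradiated arrays, lower in pairs 1 and 2 and higher in pair 3, with a difference of -0.17 ± 0.10 (adjusted p = 0.288). The scaffold INCENP lay at -0.41, -0.23 and 0.068 in the pairs. None of these 3 genes had an unadjusted p under 0.05 in limma, against 28.9% of all genes.

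**Figure D3:**
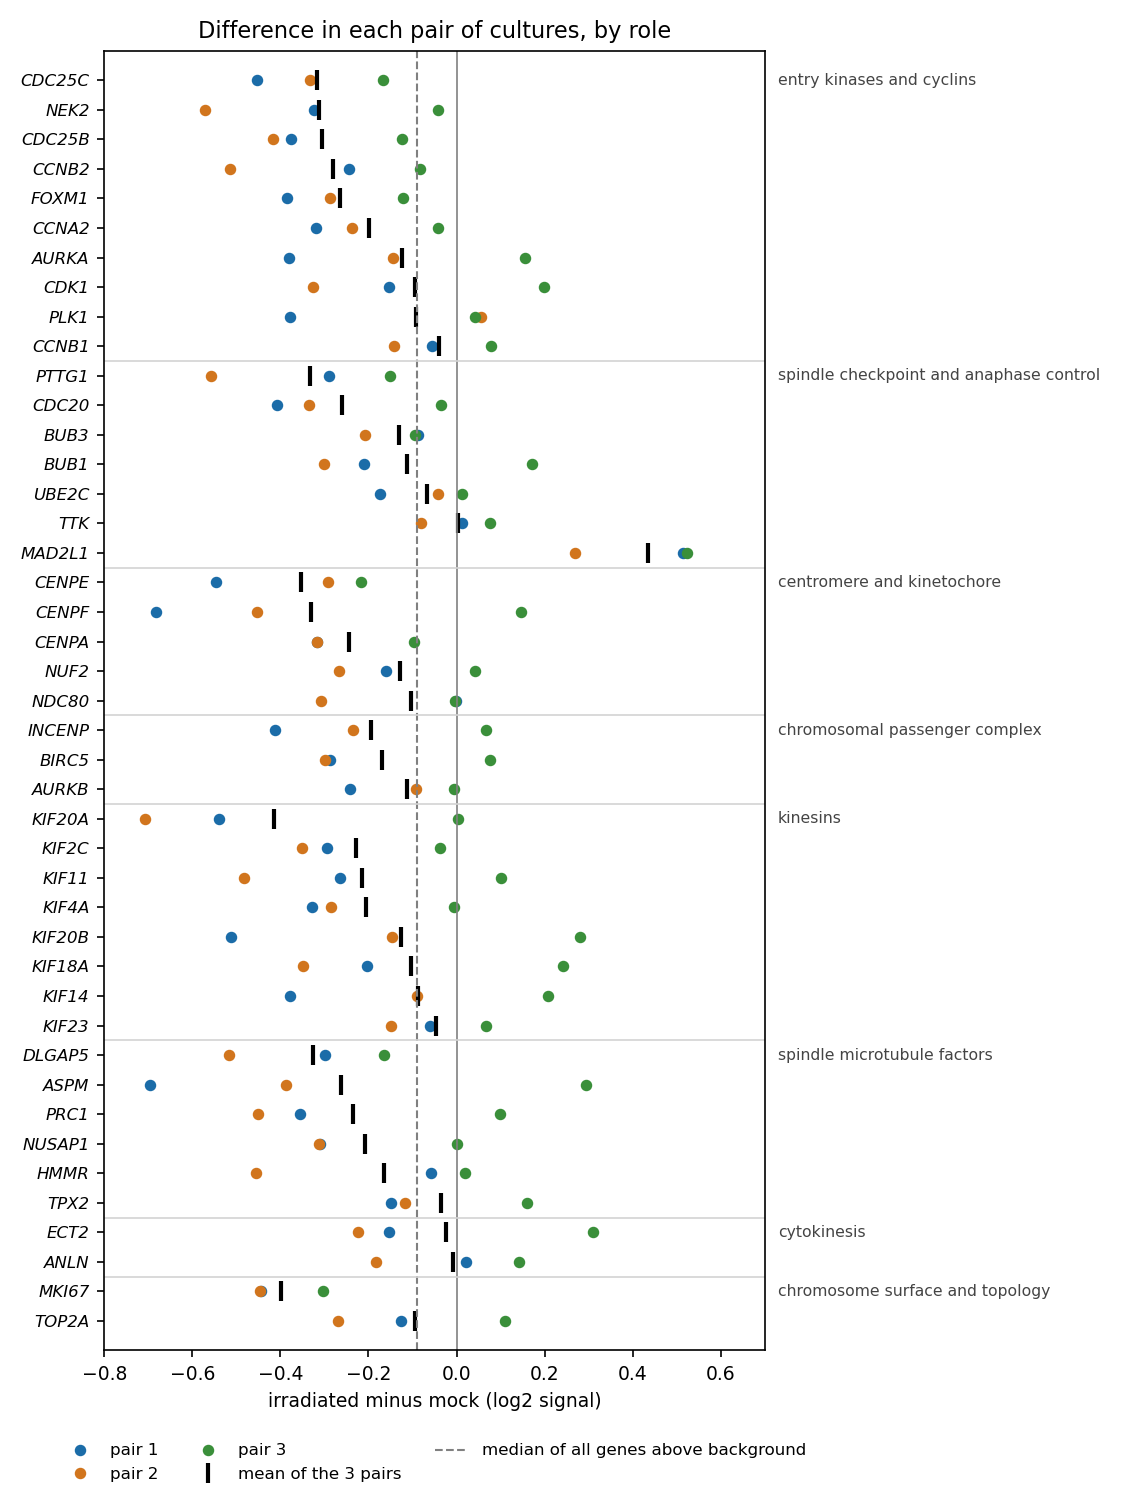
Irradiated minus mock difference in log2 signal of the 43 mitosis genes, grouped by role, with 1 point per pair, a black bar for the mean of the 3 pairs and a dashed line at the median of all genes above background (-0.089). Points of pair 3 lie to the right of those of pairs 1 and 2 for all but 3 genes, and MAD2L1 has all 3 points above 0.

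Kinesins, the motors that push, pull and shorten spindle microtubules, had mean differences below 0 for all 8, against 71.8% of all genes. Of the 8 genes 0 passed, and 2 were lower at unadjusted p under 0.05 in limma, against 23.6% of all genes. KIF20A, which carries the passenger complex to the central spindle, had the lowest mean of all 43 genes, with signals of 12.90, 13.56 and 12.67 on the mock arrays and 12.36, 12.85 and 12.68 on the irradiated arrays. It was lower in pairs 1 and 2 and level in pair 3 (-0.54, -0.71 and 0.0039), with a mean of -0.41 ± 0.14 (adjusted p = 0.117). Without replicate 3 KIF20A lay at -0.62 (adjusted p = 0.0474 in limma), past the threshold. KIF20B lay at -0.51, -0.15 and 0.28 in the pairs and had a mean of -0.13 ± 0.15 (adjusted p = 0.59). KIF2C, which takes microtubules apart at centromeres, lay at -0.29, -0.35 and -0.037, KIF4A at -0.33, -0.29 and -0.0060 and KIF11, which slides antiparallel microtubules, at -0.26, -0.48 and 0.10. KIF14, KIF18A, which shortens kinetochore microtubules, and KIF23, a subunit of centralspindlin, had means of -0.087, -0.10 and -0.047, each with pair 3 above 0.

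Among 6 spindle microtubule factors all means were below 0, as were those of 71.8% of all genes. Of the 6 genes 0 passed, and 1 was lower at unadjusted p under 0.05 in limma, against 23.6% of all genes. DLGAP5, which stabilises microtubules near kinetochores, had 12.56, 13.53 and 12.99 on the mock arrays and 12.26, 13.01 and 12.83 on the irradiated arrays, lower in each pair, with a difference of -0.33 ± 0.092 (adjusted p = 0.0846). ASPM lay at -0.69, -0.39 and 0.29 in the pairs, the widest split of the 43 genes, and its mean was -0.26 ± 0.18 (adjusted p = 0.363). PRC1, which bundles midzone microtubules, lay at -0.35, -0.45 and 0.10 in the pairs, NUSAP1, which links microtubules to chromatin, at -0.31, -0.31 and 0.0020 and HMMR at -0.058, -0.46 and 0.018. TPX2, the activator of Aurora A, had a mean of -0.036 ± 0.093 (adjusted p = 0.825).

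Both cytokinesis genes lay near 0 on deposited values. ECT2, the exchange factor that activates RhoA at the cleavage furrow, had 12.95, 13.48 and 12.20 on the mock arrays and 12.80, 13.26 and 12.51 on the irradiated arrays, a difference of -0.023 ± 0.12 (adjusted p = 0.913). ANLN, anillin, which scaffolds the contractile ring, had 15.75, 16.37 and 15.32 on the mock arrays and 15.77, 16.19 and 15.46 on the irradiated arrays, a difference of -0.0072 ± 0.092 (adjusted p = 0.966). Both were lower in pair 2 and higher in pair 3, and after quantile normalization both lay above 0, at 0.041 and 0.10.

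A further 118 genes of mitosis and its control, in 6 lists, held 110 with a single symbol and 103 above background. Of the 103, 81 had differences below 0 (78.6%, against 71.8% of all genes), with a median of -0.095, close to the -0.089 of all genes. Of the 103 genes 2 passed, both lower, while 3.71% of all genes passed as lower. Pair medians of the 103 were -0.16, -0.17 and 0.058, again with pair 3 above 0. After quantile normalization 60 of 103 were lower, against 54.2% of all genes, and the median was -0.0090. The spindle and cytokinesis list (22 genes) had a median of -0.12 and the condensin and cohesin list (14 genes) of -0.098, with 0 passing in each. Further centromere and kinetochore genes (26) had a median of -0.087 and anaphase-promoting complex genes (16) of -0.080, again with 0 passing.

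CCNF, the F-box protein cyclin F of G2 phase, fell by 0.41 (SE 0.082, adjusted p = 0.0448), with signals of 7.85, 8.32 and 7.49 on the mock arrays and 7.28, 7.94 and 7.21 on the irradiated arrays. Each irradiated array was below its partner, and the call was lost after quantile normalization (adjusted p = 0.0802). RBL2, the pocket protein p130 of the DREAM complex, had 11.22, 11.11 and 11.38 on the mock arrays and 10.89, 10.42 and 10.93 on the irradiated arrays. It fell by 0.49 (SE 0.091, adjusted p = 0.038), lower in each pair, and did not pass after quantile normalization (adjusted p = 0.0881). These were the 1 call among 13 mitotic entry regulators and the 1 call among 12 genes of the DREAM and MuvB complexes. Of all genes tested 3.71% passed as lower.

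Among condensin genes NCAPD2, a condensin I subunit, lay lowest at -0.31 ± 0.12 (adjusted p = 0.141), and the cohesin protector CDCA5, sororin, highest at 0.091 ± 0.11 (adjusted p = 0.603). Between them, SGO1, the shugoshin that guards centromeric cohesin, lay at -0.16 and NCAPH2, of condensin II, at 0.051. In the kinetochore list KNTC1, a subunit of the checkpoint complex RZZ, lay at -0.29 ± 0.11 (adjusted p = 0.157) and CENPQ, of the inner kinetochore, at 0.27 ± 0.11 (adjusted p = 0.172). The MIS12 complex subunit NSL1 lay at -0.28 and the RZZ subunit ZWILCH at 0.16. ANAPC16, a subunit of the anaphase-promoting complex, was lower in each pair, at -0.14, -0.53 and -0.50, and did not pass (adjusted p = 0.0673). UBE2S, which extends ubiquitin chains for that complex, lay at -0.26, and its subunits ANAPC4 and ANAPC7 lay highest at 0.014 and 0.040. The motors KIF22 and KIFC1 lay lowest of the spindle list at -0.33 and -0.30, and MELK, a kinase of dividing cells, highest at 0.059, followed by PSRC1 at -0.011.

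DNA replication genes, which act earlier in the cycle, had a median of 0.087 over 34 genes above background, and 0 passed. Of the 34 genes 22 were higher and 12 lower (35.3%, against 71.8% of all genes). In limma 1 was lower and 3 were higher at unadjusted p under 0.05, against 23.6% and 5.22% of all genes. Their pair medians were -0.13, -0.027 and 0.38, so that pair 3 stood highest here too. No test of the difference between the lists was made. CDC6, which loads the replicative helicase, lay at 0.11, 0.031 and 1.12 in the pairs and had the highest mean, 0.42 ± 0.21 (adjusted p = 0.232). GINS1, a helicase subunit, lay at 0.36 ± 0.091 (adjusted p = 0.0673), while its complex partner GINS3 and ORC1, of the origin recognition complex, lay lowest at -0.24 and -0.22. The list of arrest genes also held cyclin D1, which is not itself an arrest gene. Of its 8 genes above background 4 were lower and 4 higher, with a median of -0.035 (0.017 after quantile normalization). At unadjusted p under 0.05 in limma 2 were lower and 1 higher, against 23.6% and 5.22% of all genes. After quantile normalization 0 were lower and 3 higher at that limit, against 1129 and 909 of all 9324 genes. The 1 that passed was CCND1, cyclin D1, and 1.3% of all genes passed as higher. CCND1 had signals of 14.26, 13.66 and 13.74 on the mock arrays and 14.80, 14.07 and 14.26 on the irradiated arrays. It rose by 0.49 (SE 0.078, adjusted p = 0.0296), in every pair (0.54, 0.41 and 0.52), and also passed after quantile normalization (adjusted p = 0.032). Of the keratinocyte markers 9 of 9 lay below 0, against 71.8% of all genes, with a median of -0.25, against -0.089. After quantile normalization 7 of 9 did, against 54.2%, with a median of -0.16, against -0.015. Their pair medians on deposited values were -0.30, -0.30 and -0.069, so pair 3 stayed below 0. On deposited values 2 passed, both lower (3.71% of all genes). DSP, desmoplakin, had 15.32, 15.65 and 16.52 on the mock arrays and 14.88, 15.21 and 16.12 on the irradiated arrays, and PKP1, plakophilin 1, had 11.01, 10.90 and 12.01 on the mock arrays and 10.32, 10.30 and 11.63 on the irradiated arrays. Both were lower, at adjusted p = 0.036 and 0.0295 in limma (0.0538 and 0.0525 after quantile normalization). Their part in the values of the mitosis genes was not tested.

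**Figure D4:**
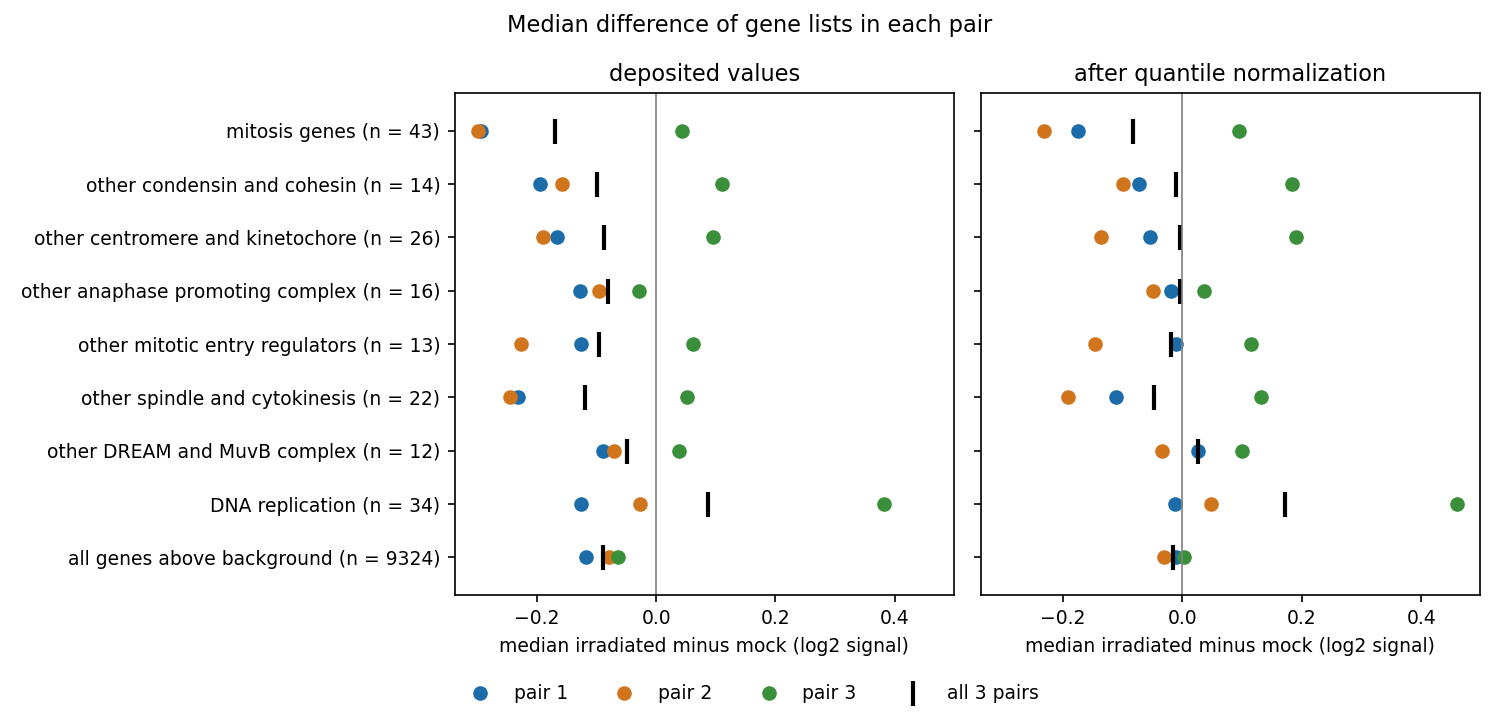
Median irradiated minus mock difference in log2 signal of the mitosis genes, 6 further mitosis lists, DNA replication genes and all genes above background, with 1 point per pair and a black bar for all 3 pairs, on deposited values (left) and after quantile normalization (right). Pair 3 lies highest for every gene list shown, at 0.043 for mitosis genes and 0.38 for DNA replication genes on deposited values.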

How the data were processed

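Total RNA of 6 HaCaT cultures was hybridised to 6 arrays, 1 per culture, grouped and numbered by their titles. The authors deposited log2 signals, made with RMA per the submitters' processing notes and with SST-RMA per the file headers of the exon-level table. The 2995 features held by both tables have the same values (largest difference 0), so which of these made the gene-level values is unsettled. Software versions are not given here. Of 67528 transcript clusters, 23781 had 1 symbol, updated through the GRCh38.p14 gene table to 22411 genes. Exon-level values were not used otherwise.

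Differences were fitted with limma 3.58.1 in R 4.3.3 (lmFit, eBayes, variance trend, replicate number as a block), two-sided and Benjamini-Hochberg adjusted at 0.05, over all clusters and over 9324 genes whose mean exceeded 6.01. The block follows the comparison by replicate number, and same-numbered cultures deviated together. The fit was tested on simulated data. The members, lists, the filter and the tests were chosen with earlier results of these data known. Values on every array are given for called members, the 8 lowest and 4 highest means, the 8 most evenly lower genes, the 4 widest pair splits, 8 fixed genes (23 members in all) and called genes of other lists. Lists with no call are given by differences of their 2 lowest and 2 highest genes. Other scalings, filters, fits without the block and left-out arrays were tried. The number of arrays limits the precision.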

Additional observations from a re-analysis of the deposited data

How the results depend on the processing

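With no replicate block 0 of 43 mitosis genes and 0 of 9324 genes were called in limma (312 of the latter at unadjusted p under 0.05), against 2 and 467 with it. Scaling moved the counts to 1 mitosis gene (MAD2L1) and 203 genes after quantile normalization, 1 and 179 after cyclic loess, and 1 and 269 with arrays centred on genes above background. Over all genes with a single symbol 0 and 0 were called, and over 11205 genes above the median signal 0 mitosis genes and 375 genes. Leaving out replicates gave 0 to 1 mitosis genes and 0 to 251 genes called, and a median difference of the mitosis genes from -0.36 to 0.11 (-0.29 without pair 3 in the paired fit), the highest without mock replicate 2 in a fit with no replicate block, where its partner stayed in. The sign of 7 of 43 genes turned after quantile normalization, of 7 after cyclic loess and of 10 after centring. Among the 23 members with values on every array these were 4 after quantile normalization (ANLN 0.10, CCNB1 0.041, ECT2 0.041, TOP2A 0.013), 3 after cyclic loess (ANLN 0.059, CCNB1 0.044, ECT2 0.060) and 6 after centring (ANLN 0.092, CCNB1 0.059, CDK1 0.0054, ECT2 0.076, PLK1 0.0061, TOP2A 0.0035). With 1 array or 1 pair left out, differences of these 23 that crossed 0 in some fits ran over -0.36 to 0.28 (ECT2), -1.31 to 0.89 (KIF20B), -0.40 to 0.14 (PLK1), -0.12 to 0.13 (TTK), -0.26 to 0.27 (ANLN), -0.16 to 0.12 (CCNB1), -0.24 to 0.13 (CDK1), -1.29 to 0.55 (ASPM), -0.34 to 0.10 (AURKB), -0.30 to 0.026 (BIRC5), -1.63 to 0.89 (CENPE), -1.34 to 0.48 (CENPF) and -0.32 to 0.12 (TOP2A). These ranges pool paired fits without 1 pair and fits with no replicate block without 1 array, whose partner stayed in. In the latter the spread between cultures enters the difference. ASPM, AURKB, BIRC5, CENPE, CENPF and TOP2A crossed 0 only in fits with no block. In the paired fits CENPE lay at -0.25, -0.38 and -0.42 without replicates 1, 2 and 3. The calls of MAD2L1 and MKI67 held with no variance trend and with the mean of a symbol's clusters. The causes were not tested.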
